A study of Mus musculus with 102 samples.

Results

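The dopaminergic midbrain, measured as the ventral tegmental area (VTA) and the substantia nigra (SN), was compared with the dorsal midbrain, measured as the periaqueductal gray (PAG), the superior colliculus (SC) and the inferior colliculus (IC). The arrays of a region were taken by their titles. The regions, gene lists and motifs were chosen with earlier results of these data known. They were 10 of the 102 arrays of the series, 2 of each of these 5 regions out of 51 regions of the mouse central nervous system, so that 4 arrays stood against 6. All mice were male Balb/c animals 7 to 8 weeks old, sampled under light/dark cycles or in constant darkness, and the labels do not tell which pool came from which lighting. No group carried an allele or a treatment that another lacked. Each region was punched out on both sides from frozen brain slices of 0.5 mm, and the punches of 6 time points 4 h apart were pooled into the RNA of 1 array, which averages over the day. Each punch holds all cell types at its place, and fewer cells of a type and less RNA per cell cannot be told apart. The 2 arrays of a region are separate pools, so p-values below measure the spread between such pools. VTA and SN shared no sampling day with PAG, SC or IC, nor with each other, and region and sampling day cannot be told apart.

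Dopamine neurons make dopamine from tyrosine, load it into synaptic vesicles, take it back up through a transporter in their membrane and send axons to the striatum, the accumbens and the cortex. Their identity is held by a set of transcription factors that are already needed when the neurons are born in the floor of the embryonic midbrain. The roof of the embryonic midbrain gives rise to the colliculi, which are relays for vision (SC) and hearing (IC). The PAG surrounds the cerebral aqueduct and takes part in defence, pain control and autonomic responses. It borders on the serotonin neurons of the dorsal raphe and on small cranial motor nuclei.

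Values are log2 expression values after robust multi-array averaging (RMA), and a difference is the mean of VTA and SN minus the mean of PAG, SC and IC on that scale. The 10 arrays had medians between 7.36 and 7.44, and the 2 arrays of a region correlated across probe sets with r between 0.9934 (IC) and 0.9966 (VTA). Of 45037 probe sets, 3675 were higher and 3175 lower in the dopaminergic regions at an adjusted p below 0.05 in limma, which is 8.16% and 7.05% of those tested. Few of these differences were large, since 159 of the higher and 76 of the lower ones reached 1 on the log2 scale and 27 and 10 reached 2. The sides are made of different regions, and a mean can rest on 1 of them. Taken alone, VTA was higher than the dorsal mean for 8.61% and lower for 6.4% of probe sets, and SN for 9.03% and 9.98%. Both were higher for 1057 of the 3675 probe sets and both lower for 699 of the 3175. All 6 pairs of a dopaminergic and a dorsal region differed the same way for 229 probe sets that were higher (0.508%) and 39 that were lower (0.0866%), or 169 and 25 genes. With the 5 region means as test units, 2 higher probe sets stayed called, those of *Slc6a3* and *Ctxn3*, and 0 lower ones. In that test 1511 higher and 789 lower probe sets had an unadjusted p below 0.05. These are 5.11% of all probe sets, about the share that a cutoff of 0.05 gives by chance alone. The calls below therefore speak of these pools of these 5 regions.

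**Figure D1:**
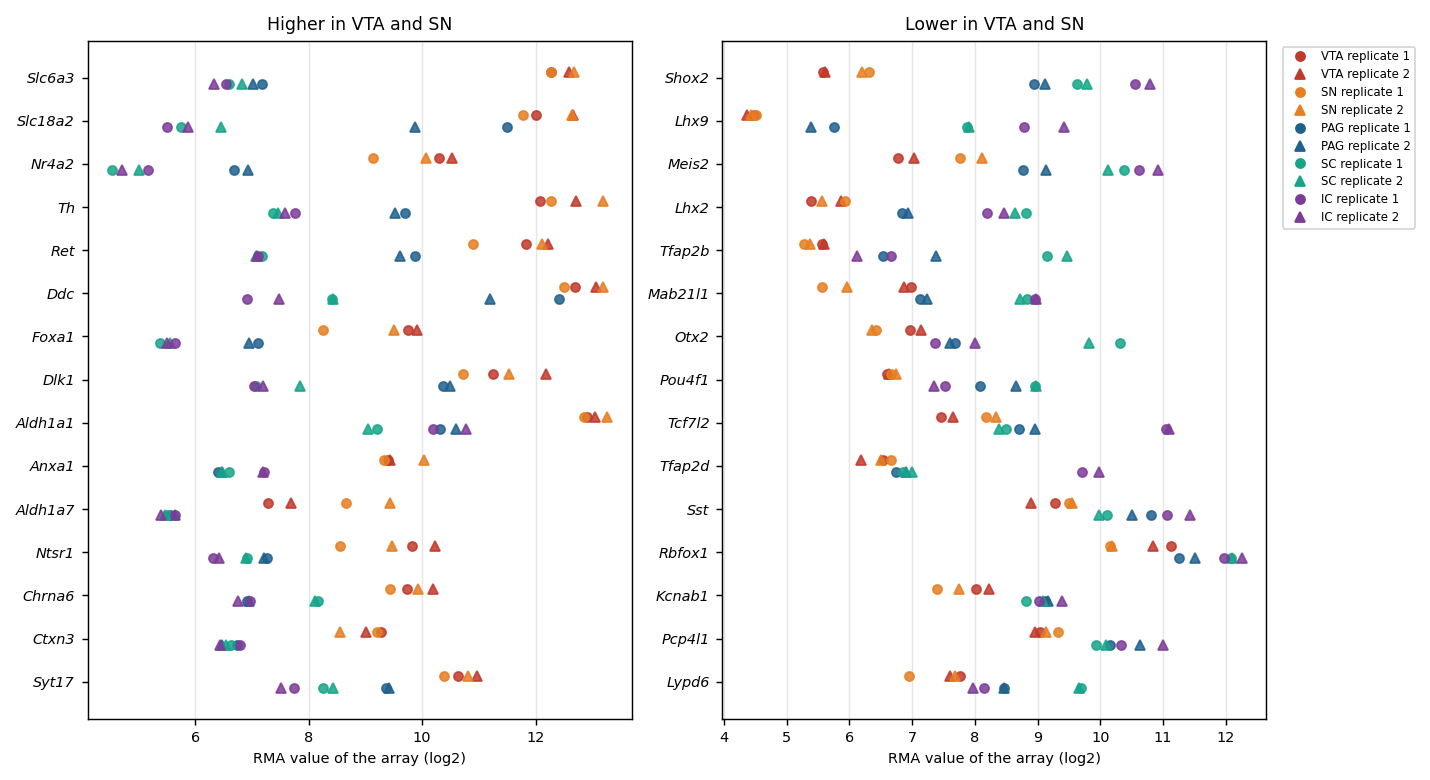
RMA value (log2) of each of the 10 arrays for the 15 genes with the largest difference in each direction among those whose 4 VTA and SN arrays do not overlap the 6 dorsal arrays. Each point is 1 array, colour gives the region, circles are replicate 1 and triangles replicate 2, and values compare within a gene only. For *Slc18a2*, *Ddc* and *Dlk1* the PAG arrays sit between the other dorsal arrays and those of VTA and SN, and for *Tfap2d* and *Tcf7l2* the IC arrays stand apart from all others.

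Genes that make, pack and take back dopamine were among those with the largest differences. The 15 largest in each direction, here and below, were picked only among genes whose arrays did not overlap between the sides. Lack of overlap is thus no result for these genes. *Slc6a3*, the plasma membrane dopamine transporter, read 12.27 and 12.59 in the 2 VTA arrays and 12.28 and 12.67 in the SN arrays, against 7.18 and 7.02 in PAG, 6.60 and 6.82 in SC and 6.55 and 6.33 in IC. All 4 dopaminergic arrays lay far above the 6 dorsal ones, and the difference was 5.70 (SE 0.08, adjusted p = 1.08e-49). Detection calls were not used, and whether the dorsal level exceeds the background of the probe set is not known, so no fold is given. *Th*, tyrosine hydroxylase, which makes the dopamine precursor L-DOPA, read 12.07 and 12.72 in VTA, 12.28 and 13.19 in SN, 9.69 and 9.53 in PAG, 7.37 and 7.45 in SC and 7.75 and 7.58 in IC. Its difference was 4.34 (SE 0.13, adjusted p = 7.81e-34), with PAG above both colliculi.

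*Slc18a2*, the vesicular monoamine transporter, and *Ddc*, the decarboxylase that turns L-DOPA into dopamine, are used by serotonin neurons as well. *Slc18a2* read 12.00 and 12.66 in VTA and 11.77 and 12.64 in SN, against 11.50 and 9.88 in PAG, 5.74 and 6.45 in SC and 5.50 and 5.87 in IC. *Ddc* read 12.70 and 13.06 in VTA and 12.50 and 13.19 in SN, against 12.41 and 11.19 in PAG, 8.41 and 8.42 in SC and 6.92 and 7.47 in IC. For both genes PAG replicate 1 came close to the lowest SN array without reaching it. The differences were 4.78 (SE 0.24, adjusted p = 1.34e-23) and 3.73 (SE 0.16, adjusted p = 5.75e-27), and without PAG they were 6.38 and 5.06. The other probe set of *Ddc* differed by 0.09 (adjusted p = 0.675).

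*Aldh1a1*, a retinaldehyde dehydrogenase that also clears dopamine aldehydes, read 12.90 and 13.05 in VTA, 12.85 and 13.26 in SN, 10.32 and 10.59 in PAG, 9.21 and 9.04 in SC and 10.20 and 10.77 in IC, a difference of 2.99 (SE 0.14, adjusted p = 1.63e-25). That no dorsal array reached those of VTA and SN follows from the way the gene was picked. *Aldh1a7*, its closest relative, read 7.29 and 7.68 in VTA and 8.65 and 9.43 in SN against 5.39 to 5.65 in the dorsal arrays, a difference of 2.73 (SE 0.08, adjusted p = 3.02e-34). Unlike *Aldh1a1*, it was higher in SN than in VTA, with VTA minus SN at -1.55 (SE 0.12, adjusted p = 3.95e-14). The sequences of the pair are alike, and signal shared between their probe sets was not tested.

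Of the 16 genes listed for dopamine synthesis and handling 14 were measured, and 11 of them were higher and 0 lower. The other 3 did not pass the test. Their median difference was 0.85, beside -0.017 over all 18193 genes, of which 9.59% were higher and 8.35% lower. Since the lists were chosen with earlier results known, the shares of all genes given beside list counts are a description and no test. *Gch1*, GTP cyclohydrolase, the first enzyme of the cofactor that tyrosine hydroxylase needs, read 8.00 and 8.88 in VTA and 7.01 and 8.06 in SN against 8.51 and 6.94 in PAG and 5.97 to 6.20 in the colliculi. PAG replicate 1 overlapped the dopaminergic arrays there, and the difference was 1.36 (SE 0.15, adjusted p = 4.20e-10). The differences of *Pcbd1*, *Qdpr* and *Pts*, which serve the same cofactor, were 0.45, 0.37 and 0.32. *Drd2*, the receptor by which dopamine neurons sense their own release, was higher by 1.25 (SE 0.13, adjusted p = 4.21e-11), at 9.60 to 10.57 against 8.37 to 9.36, without overlap. *Maoa*, a monoamine oxidase, differed by 0.20 (adjusted p = 0.0149). Some of these small differences lost the call when 1 dorsal region was left out, *Pcbd1* without IC (0.26, adjusted p = 0.0651) and *Pts* and *Maoa* without SC (0.13, adjusted p = 0.325, and 0.07, adjusted p = 0.547). *Maoa* also lost it without VTA replicate 2, PAG replicate 1 or SC replicate 1 (0.17 to 0.18). *Maob*, its sister enzyme, did not pass the test (-0.08, adjusted p = 0.69), with 11.24 and 10.30 in PAG and 9.27 to 9.84 in VTA and SN. Over the 14 genes the mean level of an array lay between 10.61 and 11.03 in VTA and SN, at 10.03 and 9.68 in PAG and between 8.51 and 8.72 in the colliculi.

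Promoters are shown for the main genes of the dopamine pathway and for the forkhead factor *Foxa1*, all among the 15 largest positive differences, since the dopamine genes are what the results turn on and a forkhead site is one of the motifs searched. The windows come from RefSeq on GRCm38.p6 and run on the strand of the gene from 250 bases before the start to 50 after it. The motifs searched on both strands were AAAGGTCA (NBRE, a site of Nr4a2), GTTTAC (the core of forkhead sites), TAATCC (a site of Pitx factors) and TAATTA (a homeodomain core), and capitals mark a match.
*Th* at chr7:142899946-142900245, minus strand, with no match: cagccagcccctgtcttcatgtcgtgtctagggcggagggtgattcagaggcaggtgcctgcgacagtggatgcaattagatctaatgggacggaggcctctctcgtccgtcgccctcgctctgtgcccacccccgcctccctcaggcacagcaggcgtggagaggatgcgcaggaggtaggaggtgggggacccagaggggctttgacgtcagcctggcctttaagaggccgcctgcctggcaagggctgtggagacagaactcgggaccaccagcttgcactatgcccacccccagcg
*Slc6a3* at chr13:73536497-73536796, plus strand, with no match: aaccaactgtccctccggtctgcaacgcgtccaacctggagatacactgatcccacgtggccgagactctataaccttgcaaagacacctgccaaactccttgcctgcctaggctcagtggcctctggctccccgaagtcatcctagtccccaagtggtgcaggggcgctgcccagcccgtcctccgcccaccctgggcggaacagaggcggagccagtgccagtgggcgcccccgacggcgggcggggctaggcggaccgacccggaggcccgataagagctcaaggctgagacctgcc
*Ddc* at chr11:11898095-11898394, minus strand, the first of its 2 windows, with an NBRE read on the other strand: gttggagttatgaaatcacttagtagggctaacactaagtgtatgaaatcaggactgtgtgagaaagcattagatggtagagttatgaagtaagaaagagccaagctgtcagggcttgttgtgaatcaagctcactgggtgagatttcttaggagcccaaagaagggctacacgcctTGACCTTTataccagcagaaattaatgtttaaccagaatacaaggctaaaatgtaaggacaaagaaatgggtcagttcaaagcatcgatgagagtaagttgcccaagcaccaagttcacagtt
*Slc18a2* at chr19:59260628-59260927, plus strand, with a forkhead core read on the other strand: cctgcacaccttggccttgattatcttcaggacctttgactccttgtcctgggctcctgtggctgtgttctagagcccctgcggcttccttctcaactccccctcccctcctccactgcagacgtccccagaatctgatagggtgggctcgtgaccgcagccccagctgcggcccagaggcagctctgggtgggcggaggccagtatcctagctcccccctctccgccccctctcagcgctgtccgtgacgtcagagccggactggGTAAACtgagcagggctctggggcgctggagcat
*Foxa1* at chr12:57546062-57546361, minus strand, with a forkhead core read on the other strand: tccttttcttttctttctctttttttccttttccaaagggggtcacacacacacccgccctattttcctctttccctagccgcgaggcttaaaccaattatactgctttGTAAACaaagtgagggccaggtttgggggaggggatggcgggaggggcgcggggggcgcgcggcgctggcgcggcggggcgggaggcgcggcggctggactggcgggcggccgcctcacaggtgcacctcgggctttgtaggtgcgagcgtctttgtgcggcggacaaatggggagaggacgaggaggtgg
Among all 32851 windows the NBRE occurred in 1.51%, the forkhead core in 7.89%, the Pitx site in 7.06% and the homeodomain core in 5.29%. Of the 15 genes with the largest positive difference 11 had a window. Of these 11, *Ddc* held the NBRE, and *Slc18a2*, *Foxa1* and *Dlk1* held the forkhead core. The NBRE of *Ddc* lay in the window shown, and its second window had no match. Of the 15 with the largest negative difference 14 had a window, and the Pitx site was found in *Otx2* and *Tcf7l2* and the homeodomain and forkhead cores in *Otx2*. A match describes these letters in this window only.

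Transcription factors of dopamine neurons were among the largest differences as well. *Foxa1*, a forkhead factor of floor plate descendants, read 9.75 and 9.91 in VTA and 8.25 and 9.50 in SN against 7.11 and 6.94 in PAG, 5.37 and 5.56 in SC and 5.65 and 5.50 in IC, a difference of 3.33 (SE 0.14, adjusted p = 5.80e-27). VTA exceeded SN by 0.96 (SE 0.22, adjusted p = 7.95e-04), and PAG lay above both colliculi. *Nr4a2* (Nurr1), an orphan nuclear receptor that switches on the dopamine genes, read 10.29 and 10.53 in VTA, 9.13 and 10.06 in SN, 6.69 and 6.93 in PAG, 4.54 and 5.00 in SC and 5.17 and 4.70 in IC on its most different probe set, a difference of 4.50 (SE 0.28, adjusted p = 2.95e-19). Lack of overlap was a condition of its choice. Of 48 regions it was the habenular nucleus that had the highest mean, at 11.79. Its 6 probe sets ranged from -0.17 to 4.50 in their difference.

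The homeodomain factor *En1*, needed for the survival of dopamine neurons, read 7.08 and 8.85 in VTA and 6.57 and 8.44 in SN against 6.13 and 5.49 in PAG, 4.63 and 4.67 in SC and 6.02 and 6.04 in IC, a difference of 2.24 (SE 0.18, adjusted p = 3.21e-15). Replicate 2 exceeded replicate 1 by more than 1 log2 unit in both regions, and even replicate 1 lay above all dorsal arrays. *Pitx3*, a homeodomain factor of these neurons, spanned only 6.58 to 6.98 against 6.34 to 6.57, and its difference of 0.35 (SE 0.07, adjusted p = 3.50e-04) was small. *Bnc2*, a zinc finger protein, was higher by 1.52 (SE 0.14, adjusted p = 5.38e-13), but SC, with 9.35 and 8.65, overlapped the dopaminergic range of 8.77 to 9.74. *Satb1*, a chromatin organiser, was higher by 1.24 without overlap (10.06 to 10.60 against 8.55 to 9.30). Of 17 listed factors 16 were measured, and 11 were higher and 2 lower, with a median of 0.40. The lower ones were *Otx2* (-1.74), which is highest in SC, and *Ebf1* (-0.64). VTA exceeded SN in 8 of the 16 and SN exceeded VTA in 0, beside 14.8% and 9.58% of all genes. *Lmx1a*, which specifies dopamine progenitors, read 7.18 and 7.25 in VTA but 6.52 and 6.62 in SN, within the dorsal range of 6.49 to 6.82, and VTA exceeded SN by 0.64 (adjusted p = 3.89e-05).

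**Figure D2:**
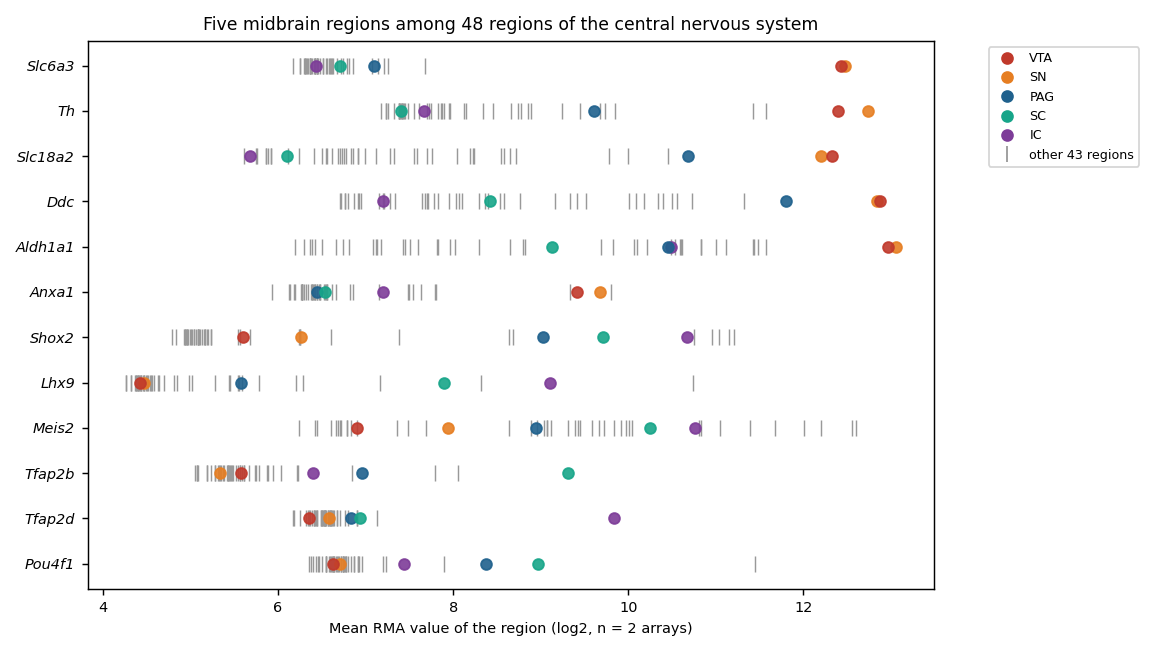
Mean RMA value (log2, n = 2 arrays) of 12 genes in VTA, SN, PAG, SC and IC (coloured points) and in the other 43 regions (grey ticks). VTA and SN are the 2 highest regions for *Slc6a3*, *Th*, *Slc18a2*, *Ddc* and *Aldh1a1*, SC is the highest for *Tfap2b* and IC for *Tfap2d*.

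Among all 48 regions, VTA and SN held the 2 highest means for 10 of the 15 genes with the largest positive difference. For 12 of these 15 the PAG was the highest of the 3 dorsal regions. How often this holds over all higher probe sets was not counted. The receptors among them were *Ret*, the signalling receptor for the survival factor GDNF, *Ntsr1*, a neurotensin receptor, and *Chrna6*, a nicotinic acetylcholine receptor subunit. *Ret* read 11.83 and 12.21 in VTA and 10.90 and 12.11 in SN against 9.87 and 9.61 in PAG, 7.17 and 7.07 in SC and 7.11 and 7.08 in IC, a difference of 3.78 (SE 0.16, adjusted p = 9.87e-27). PAG lay between the colliculi and the dopaminergic regions, as for *Th*. *Ntsr1* read 9.82 and 10.23 in VTA and 8.55 and 9.47 in SN against 6.32 to 7.26 in the dorsal arrays. Its difference was 2.68 (SE 0.10, adjusted p = 1.63e-28), and VTA exceeded SN by 1.01 (SE 0.16, adjusted p = 4.46e-06). *Chrna6* read 9.73 and 10.20 in VTA and 9.43 and 9.93 in SN against 6.91 and 6.94 in PAG, 8.17 and 8.11 in SC and 6.96 and 6.76 in IC, a difference of 2.52 (SE 0.09, adjusted p = 3.90e-30). Here SC was the highest dorsal region. Its partner subunits *Chrna4*, *Chrnb3* and *Chrna5* were also higher without overlap, by 1.39, 0.94 and 0.80.

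*Dlk1*, a Notch-like membrane protein, read 11.25 and 12.18 in VTA and 10.72 and 11.54 in SN against 10.36 and 10.49 in PAG and 7.04 to 7.84 in the colliculi, a difference of 3.09 (SE 0.18, adjusted p = 8.15e-21). It was the only one of the 15 with fewer than all 6 region pairs called, since 5 passed. *Anxa1*, annexin A1, read 9.40 and 9.43 in VTA and 9.33 and 10.03 in SN against 6.40 to 7.21 in the dorsal arrays, a difference of 2.82 (SE 0.11, adjusted p = 2.65e-28), while its other probe set gave -0.10 (adjusted p = 0.385). *Syt17*, of the synaptotagmin family, read 10.38 to 10.97 against 7.52 to 9.42, a difference of 2.24 (SE 0.11, adjusted p = 2.40e-23). *Ctxn3*, a small membrane protein of the cortexin family, read 9.28 and 9.01 in VTA and 9.20 and 8.55 in SN against 6.43 to 6.78, a difference of 2.41 (SE 0.18, adjusted p = 3.28e-16). It was the only one of these 15 genes with replicate 1 above replicate 2 in both regions.

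In the list of other dopamine neuron genes, 29 of 30 were measured, and 19 were higher and 3 lower, with a median of 0.71. The arrays of 12 did not overlap between the sides, beside 3.34% of all genes that were higher in this way. *Ndnf*, a secreted neurotrophic factor, was higher by 1.81 (SE 0.13), *Klhl1*, an actin-binding protein, by 1.75 (SE 0.13), *Gucy2c*, a guanylyl cyclase that tunes the excitability of these neurons, by 1.45 (SE 0.11) and *Gfra1*, the GDNF-binding partner of Ret, by 0.90 (SE 0.10), with adjusted p at most 1.66e-09. *Sncg*, gamma-synuclein, was higher by 1.85 (SE 0.14, adjusted p = 1.31e-15), but PAG, with 10.45 and 10.49, lay within the SN values of 10.33 and 10.79. The lower ones were *Vip*, a neuropeptide that read 11.35 and 9.57 in PAG, *Slc17a6* (-1.0) and *Gfra2* (-0.22). *Kcnj6*, a potassium channel (GIRK2) often used to mark the SN, did not pass the test (0.07, adjusted p = 0.696). Its 5 probe sets gave differences from -0.12 to 0.07.

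The dopamine genes were not equally strong in the 2 pools of a region. Of the 41 members of the 3 dopamine lists that were higher, replicate 2 exceeded replicate 1 for 38 in VTA, with a median of 0.32, and for 36 in SN, with a median of 0.5. Over all probe sets, replicate 2 was above replicate 1 for 41.6% in VTA and 49.0% in SN. *Th* differed between the pools by 0.65 in VTA and 0.91 in SN. What moved with this was not tested.

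**Figure D3:**
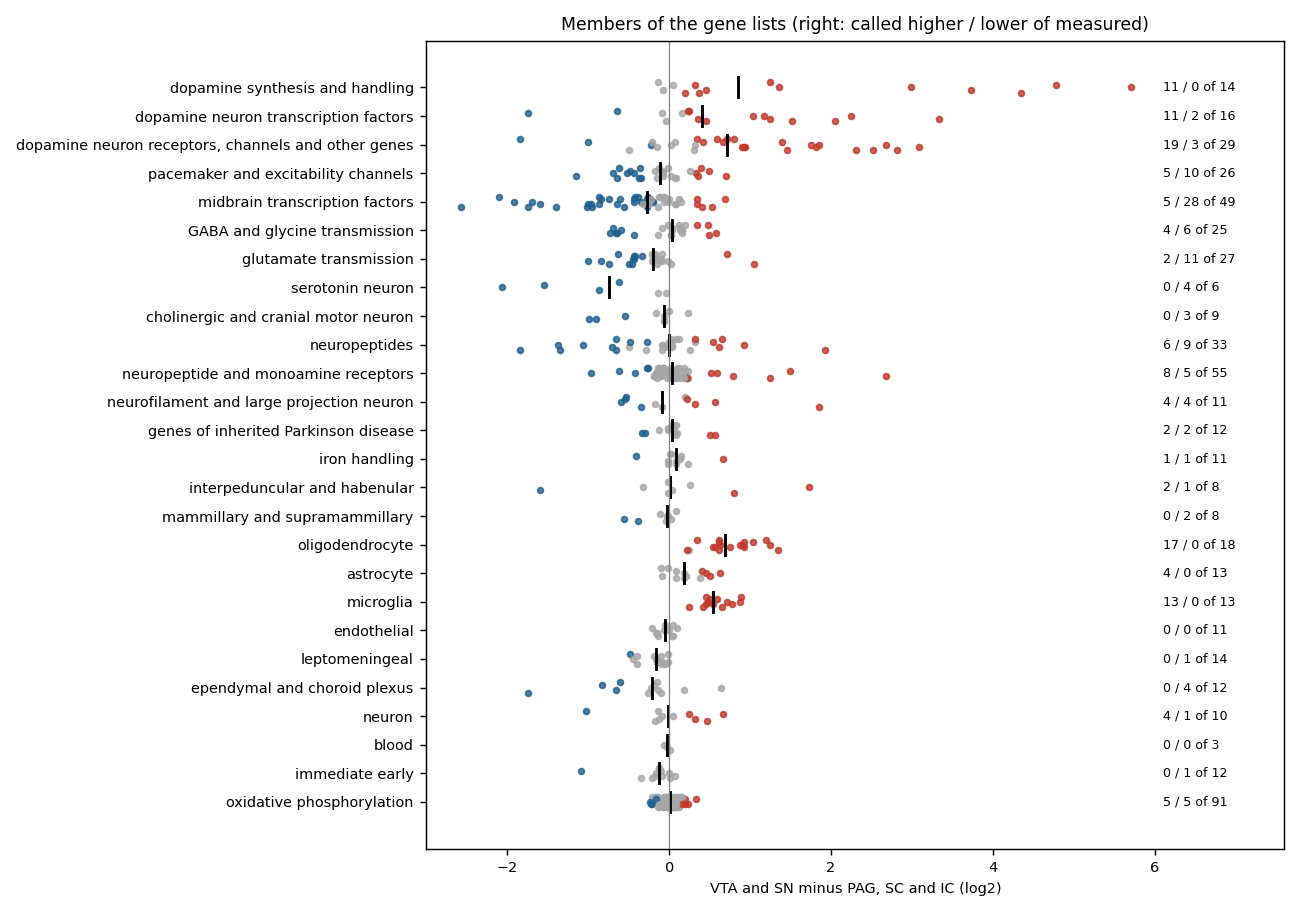
Difference of each measured list member between VTA with SN and PAG with SC and IC (log2, one point per gene). Red points were called higher, blue points lower and grey points neither in limma, the black bar is the median of the list, and the counts of higher and lower genes stand at the right. The 3 dopamine lists and the oligodendrocyte and microglia lists lie mostly to the right, and the midbrain transcription factor and glutamate lists to the left.

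Genes higher in the dorsal midbrain were led by transcription factors. *Shox2*, a homeodomain factor, read 5.58 and 5.62 in VTA and 6.32 and 6.21 in SN against 8.94 and 9.12 in PAG, 9.63 and 9.79 in SC and 10.55 and 10.79 in IC. The dorsal arrays ran in the order IC, SC, PAG, and the difference was -3.87 (SE 0.09, adjusted p = 2.69e-38), with -1.82 on its other probe set. The LIM homeodomain factor *Lhx9* read 4.37 to 4.52 in VTA and SN against 5.76 and 5.39 in PAG, 7.88 and 7.90 in SC and 8.78 and 9.42 in IC, a difference of -3.07 (SE 0.11, adjusted p = 1.88e-29). *Lhx2*, its relative, read 5.39 to 5.93 against 6.84 and 6.94 in PAG, 8.81 and 8.64 in SC and 8.19 and 8.47 in IC, a difference of -2.29 (SE 0.13, adjusted p = 7.30e-21). *Meis2*, a TALE homeodomain factor of the midbrain roof, read 6.78 and 7.03 in VTA, 7.77 and 8.11 in SN, 8.77 and 9.14 in PAG, 10.38 and 10.12 in SC and 10.62 and 10.91 in IC, a difference of -2.57 (SE 0.12, adjusted p = 2.38e-24). PAG was the lowest dorsal region for all of these, and of the 15 genes with the largest negative difference it was the highest dorsal region for 0, against 5 for SC and 10 for IC. Over all 3175 lower probe sets PAG was the highest dorsal region for 469, SC for 1366 and IC for 1340, so PAG was seldom the highest in general.

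Other factors were highest in 1 dorsal region. *Tfap2b*, of the AP-2 family, read 9.15 and 9.47 in SC, 6.54 and 7.38 in PAG and 6.67 and 6.13 in IC against 5.28 to 5.59 in VTA and SN, a difference of -2.10 (SE 0.14, adjusted p = 1.04e-17), which was -1.23 without SC. *Otx2*, which sets the extent of the embryonic midbrain, read 10.31 and 9.82 in SC, 7.36 to 8.00 in PAG and IC and 6.36 to 7.14 in VTA and SN, a difference of -1.74 (SE 0.14, adjusted p = 3.28e-15), which was -0.94 without SC. *Tfap2d* read 9.70 and 9.98 in IC and 6.75 to 7.00 in PAG and SC against 6.18 to 6.66, a difference of -1.40 (SE 0.08, adjusted p = 1.64e-21), which was -0.41 (adjusted p = 4.06e-04) without IC. *Tcf7l2*, an effector of Wnt signalling, read 11.04 and 11.09 in IC and 8.39 to 8.96 in PAG and SC against 7.46 to 8.33, a difference of -1.54 (SE 0.11, adjusted p = 1.11e-16), which was -0.73 without IC. *Pou4f1* (Brn3a), a POU factor, read 8.96 and 8.97 in SC, 8.09 and 8.65 in PAG and 7.53 and 7.35 in IC against 6.60 to 6.75, a difference of -1.60 (SE 0.10, adjusted p = 2.45e-18), with all 6 pairs called.

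Of 55 other midbrain transcription factors listed, 49 were measured, and 28 were lower and 5 higher, with a median of -0.28. These are 57.1% and 10.2%, beside 8.35% and 9.59% of all genes. Apart from *Otx2*, this list held none of the dopamine neuron factors above, such as *Nr4a2*, *En1* and *Foxa1*. Its counts depend on that choice and do not speak for midbrain factors in general. Without overlap 8 were lower, beside 1.9% of all genes. *Pax7*, a paired-box factor of the roof, was lower by the mean (-1.0, adjusted p = 1.03e-15), but only SC stood out, with 9.56 and 9.01 against 6.57 to 7.22 in PAG and IC and 6.54 to 6.91 in VTA and SN, and the difference without SC was -0.20. *Gata3* and *Tal1*, which specify inhibitory neurons, were each lower by 0.87 on the mean (differences of -0.87). For *Gata3* VTA read 5.25 and 5.45 and SN 6.73 and 6.69, and the difference of SN from the dorsal mean did not pass the test (-0.19, adjusted p = 0.188) while SN exceeded VTA (VTA minus SN -1.36, adjusted p = 1.08e-12). *Irx2*, an Iroquois factor, was lower without overlap (7.92 to 8.51 against 8.82 to 9.51; -0.95, adjusted p = 5.99e-13). The higher factors included *Nkx2-2* (0.69, adjusted p = 8.05e-05), a factor of the ventral midbrain that oligodendrocyte precursors also use, and *Nkx6-2* (0.53, adjusted p = 7.90e-04), which oligodendrocytes use as well.

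The largest negative differences also held genes of other kinds. *Sst*, somatostatin, read 8.90 to 9.54 in VTA and SN against 9.97 to 11.42, a difference of -1.35 (SE 0.19, adjusted p = 1.91e-07). *Rbfox1*, a splicing regulator, read 11.13 and 10.84 in VTA and 10.16 and 10.18 in SN against 11.25 to 12.25, a difference of -1.28 (SE 0.08, adjusted p = 3.34e-19), with -1.21 to -0.17 on its other probe sets. *Kcnab1*, an auxiliary potassium channel subunit, read 7.39 to 8.22 against 8.81 to 9.39, a difference of -1.26 (SE 0.12, adjusted p = 2.01e-12). Also among the largest were *Pcp4l1* (-1.24, SE 0.13, adjusted p = 1.96e-10), *Lypd6* (-1.23, SE 0.15, adjusted p = 3.36e-09), which modulates nicotinic receptors, and *Mab21l1* (-1.96, SE 0.12, adjusted p = 3.34e-19), a developmental gene with VTA above SN by 1.16 (adjusted p = 6.83e-06). The arrays of all these genes do not overlap between the sides because they were picked for that.

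The PAG carried signals that neither the colliculi nor the dopaminergic regions shared. *Tph2*, the brain enzyme of serotonin synthesis, read 11.37 and 10.10 in PAG and 4.42 to 4.61 in the other 8 arrays. *Slc6a4*, the serotonin transporter, read 11.89 and 10.49 in PAG and 6.52 to 6.84 elsewhere. Of 8 serotonin neuron genes 6 were measured, and 4 were lower in VTA and SN and 0 higher, with 2 lower when PAG was left out. The difference of *Tph2* was -2.06 with PAG and 0.01 without it. Cholinergic genes behaved likewise, with *Slc18a3*, the vesicular acetylcholine transporter, at 8.42 and 8.88 in PAG and 5.44 to 5.80 elsewhere, and 3 of 9 measured genes lower, 1 without PAG. The neuropeptides *Calcb*, a calcitonin gene-related peptide, *Ucn*, urocortin, and *Cartpt* read highest in PAG, at 7.88 and 8.31, 8.17 and 9.03, and 12.20 and 12.76, and their differences of -0.99, -0.66 and -1.37 became -0.01, 0.03 and -0.01 without PAG. Of 12 ependymal and choroid plexus genes 4 were lower, *Tmem212*, *Ccdc153*, *Dynlrb2* and *Otx2*. The first 3, which are genes of motile cilia, read 8.85 to 10.02 in PAG and 6.84 to 7.86 in the other regions. Their part in the differences of other genes was not tested.

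VTA and SN also differed from each other. Of all probe sets 11.7% were higher in VTA than in SN and 9.36% higher in SN, and 354 probe sets were higher in VTA but lower in SN than the dorsal mean, with 205 the other way round. *Slc17a6*, the vesicular glutamate transporter VGLUT2, read 12.55 and 12.33 in VTA but 9.30 and 10.22 in SN, against 11.76 to 12.53 in the dorsal arrays. VTA lay within or just above the dorsal range and SN far below it, and VTA minus SN was 2.68 (SE 0.25, adjusted p = 1.28e-11). *Cacna2d1*, a calcium channel subunit, followed it with 11.60 and 11.30 in VTA and 8.59 and 9.44 in SN against 10.79 to 11.10 (VTA minus SN 2.44, SE 0.17, adjusted p = 1.63e-16). *Crhbp*, which binds corticotropin-releasing hormone, read 8.82 and 8.95 in VTA and 5.73 and 5.84 in SN against 5.56 to 7.29 (3.10, SE 0.21, adjusted p = 3.82e-17). *Neurod6*, a bHLH factor of a subset of VTA neurons, read 6.94 and 7.44 in VTA and 4.54 and 4.51 in SN against 4.32 to 5.47 (2.66, SE 0.39, adjusted p = 6.01e-07).

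**Figure D4:**
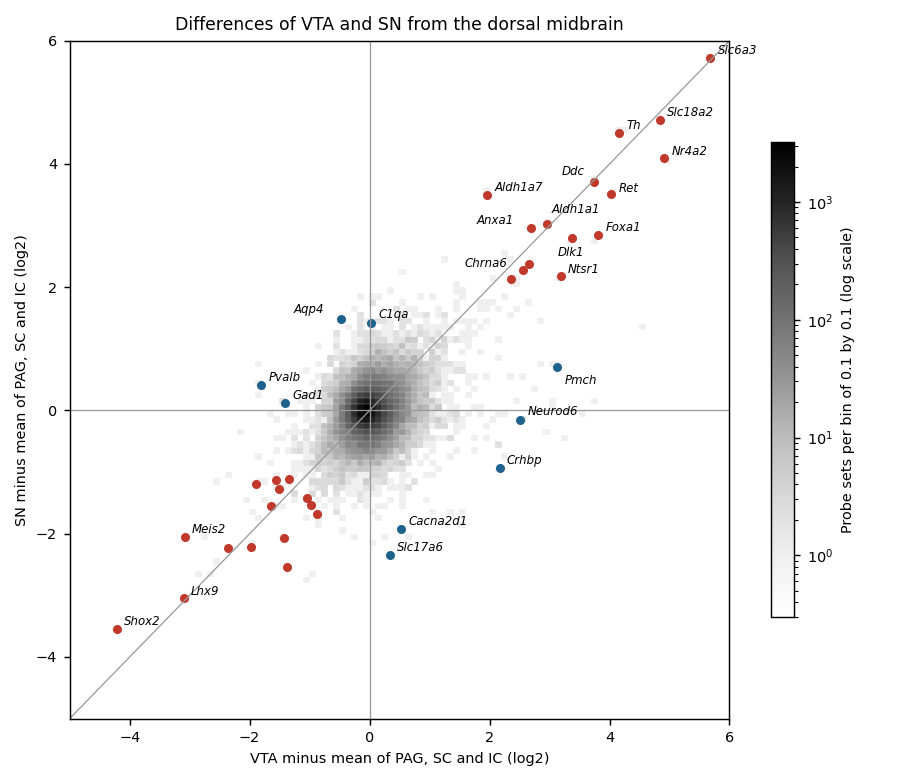
Difference of VTA (horizontal axis) and of SN (vertical axis) from the mean of PAG, SC and IC (log2), with the number of probe sets in bins of 0.1 as grey shades on a log scale. Red points are the 30 genes with the largest differences of both regions together, and blue points the genes with the largest differences between VTA and SN among those and the list members called in the joint comparison (one of the red points, *Aldh1a7*, is also of this kind). The red points lie along the diagonal, while *Slc17a6*, *Cacna2d1* and *Crhbp* lie below it and *Pvalb*, *Gad1* and *Aqp4* above it.

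Many of the listed glutamate genes showed this split. Of 27 measured, 11 were lower and 2 higher in the joint comparison, with a median of -0.20. These are 40.7% and 7.41%, beside 8.35% and 9.59% of all genes. SN was below the dorsal mean for 17 and VTA for 6, beside 12.3% and 6.95% of all genes. VTA exceeded SN for 14 and SN exceeded VTA for 2, beside 14.8% and 9.58% of all genes. *Grm7*, a presynaptic glutamate receptor, read 9.74 and 9.51 in VTA and 8.69 and 8.73 in SN against 9.55 to 10.42 (VTA minus SN 0.91, adjusted p = 2.93e-06). *Grik3*, a kainate receptor subunit, went the other way in the joint comparison and was higher without overlap, by 1.05 (SE 0.16, adjusted p = 1.67e-06). Among GABA and glycine genes 4 of 25 were higher and 6 lower (16% and 24%), with a median of 0.04. *Gad1*, the main enzyme of GABA synthesis, read 10.88 and 11.22 in VTA and 12.76 and 12.40 in SN, against 11.95 to 12.82 in the dorsal arrays, so that VTA lay below them and SN within them (VTA minus SN -1.53, SE 0.25, adjusted p = 6.10e-06). *Pvalb*, parvalbumin, a calcium-binding protein of fast-spiking neurons, read 9.44 and 9.32 in VTA and 12.07 and 11.16 in SN, with 12.53 and 12.47 in IC and 10.11 to 11.15 in PAG and SC (VTA minus SN -2.23, SE 0.20, adjusted p = 3.84e-12). *Glra2*, a glycine receptor subunit, did not pass the test in the joint comparison (-0.14, adjusted p = 0.681), with 9.34 and 9.18 in VTA, 5.96 and 6.47 in SN and 7.28 to 8.74 between them in the dorsal arrays.

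Neuropeptide genes parted VTA from SN. Of 33 measured, 6 were higher and 9 lower in the joint comparison (18.2% and 27.3%, beside 9.59% and 8.35% of all genes). VTA was higher than the dorsal mean for 6 and SN for 0 (10.8% and 9.83% of all genes). VTA exceeded SN for 11 and SN exceeded VTA for 1 (14.8% and 9.58% of all genes). *Adcyap1*, which codes for PACAP, read 10.95 in both VTA arrays, 8.33 and 8.81 in SN and 8.46 to 10.13 in the dorsal arrays (VTA minus SN 2.38, adjusted p = 4.76e-18). *Pmch*, the precursor of melanin-concentrating hormone, whose neurons lie in the lateral hypothalamus, read 10.42 and 9.94 in VTA, 7.25 and 8.26 in SN and 6.88 to 7.31 in the dorsal arrays (VTA minus SN 2.42, SE 0.38, adjusted p = 2.83e-06). *Hcrt*, the hypocretin of other lateral hypothalamic neurons, read 7.96 and 7.65 in VTA, 7.44 and 7.34 in SN and 7.18 to 7.57 in the dorsal arrays. Lower without overlap were *Sst*, *Npy* and *Pnoc*. *Npy*, neuropeptide Y, read 8.31 to 8.69 in VTA and SN and 10.75 and 10.80 in IC, and its difference of -1.06 was -0.46 without IC.

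Of 55 measured receptors for peptides and monoamines, 8 were higher and 5 lower. These are 14.5% and 9.09%, not far from the 9.59% and 8.35% of all genes. Besides *Ntsr1* and *Drd2*, *Oprk1*, the kappa opioid receptor, was higher without overlap (8.75 to 9.17 against 7.85 to 8.53; 0.79, SE 0.09, adjusted p = 1.98e-10). *Trhr*, the receptor of thyrotropin-releasing hormone, was higher by 1.49 (SE 0.16), and *Ghsr*, the ghrelin receptor, by 0.52 (SE 0.07), both with PAG overlapping. *Cckbr*, a cholecystokinin receptor, was lower without overlap in all 6 pairs (7.75 to 8.31 against 8.65 to 9.42; -0.96, SE 0.08, adjusted p = 1.13e-13). Of 26 measured channel genes 5 were higher and 10 lower (19.2% and 38.5%), with a median of -0.11. *Kcnd3*, an A-type potassium channel subunit, was the highest of them at 0.70 (adjusted p = 3.40e-07), which did not pass the test without IC (0.23, adjusted p = 0.205). *Cacna1d*, the calcium channel Cav1.3 known for pacemaking, was lower (-0.62, adjusted p = 5.01e-09), with 9.12 and 8.99 in SC.

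Oligodendrocyte genes were higher in both dopaminergic regions. Of 20 listed 18 were measured, and 17 were higher and 0 lower, beside 9.59% and 8.35% of all genes, with a median of 0.69. The arrays of 16 did not overlap between the sides, beside 3.34% of all genes that were higher in this way. *Cldn11*, the claudin of myelin, read 10.73 and 11.02 in VTA and 11.20 and 11.04 in SN against 9.45 to 9.97 in the dorsal arrays, a difference of 1.34 (SE 0.16, adjusted p = 7.29e-09). *Mog* was higher by 1.25 (SE 0.16) and *Ugt8a*, which makes the myelin lipid galactosylceramide, by 1.20 (SE 0.13). VTA and SN were level here, and all 6 pairs were called for 11 of the 18. The mean level of the 18 genes was 11.13 to 11.32 in VTA and SN and 10.25 to 10.61 in the dorsal arrays. It moved with side for every array, and its part in the differences of other genes was not tested.

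Microglial genes were higher in SN. All 13 measured of 14 were called higher in the joint comparison, beside 9.59% of all genes, with a median of 0.54. Yet SN exceeded VTA for all 13, beside 9.58% of all genes. The median was 0.03 for VTA and 1.09 for SN against the dorsal mean. *Cx3cr1*, the fractalkine receptor of microglia, read 8.65 in both VTA arrays and 10.35 and 9.45 in SN against 8.51 to 8.80 in the dorsal arrays. *C1qa*, a complement component, read 9.51 and 9.61 in VTA and 11.32 and 10.58 in SN against 9.32 to 9.74 (VTA minus SN -1.39, SE 0.15, adjusted p = 8.91e-10). VTA lay within the dorsal range for both genes, and SN replicate 1 was the highest array. Without SN replicate 1, 10 of the 13 were called higher in the joint comparison and 10 were higher in SN than in VTA. Astrocyte genes did the same in part, with 6 of 13 higher in SN than in VTA, beside 9.58% of all genes. Without SN replicate 1, 3 of them were. *Aqp4*, the water channel of astrocyte endfeet, read 10.58 and 10.47 in VTA and 12.74 and 12.25 in SN against 10.79 to 11.24 (VTA minus SN -1.97, SE 0.23, adjusted p = 3.02e-09), and *Gfap* read 9.38 and 9.63 in VTA and 11.57 and 11.05 in SN against 9.15 to 10.80. The mean level of the microglial genes was 9.77 and 9.03 in SN, 8.37 and 8.32 in VTA and 8.22 to 8.37 in the dorsal arrays.

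**Figure D5:**
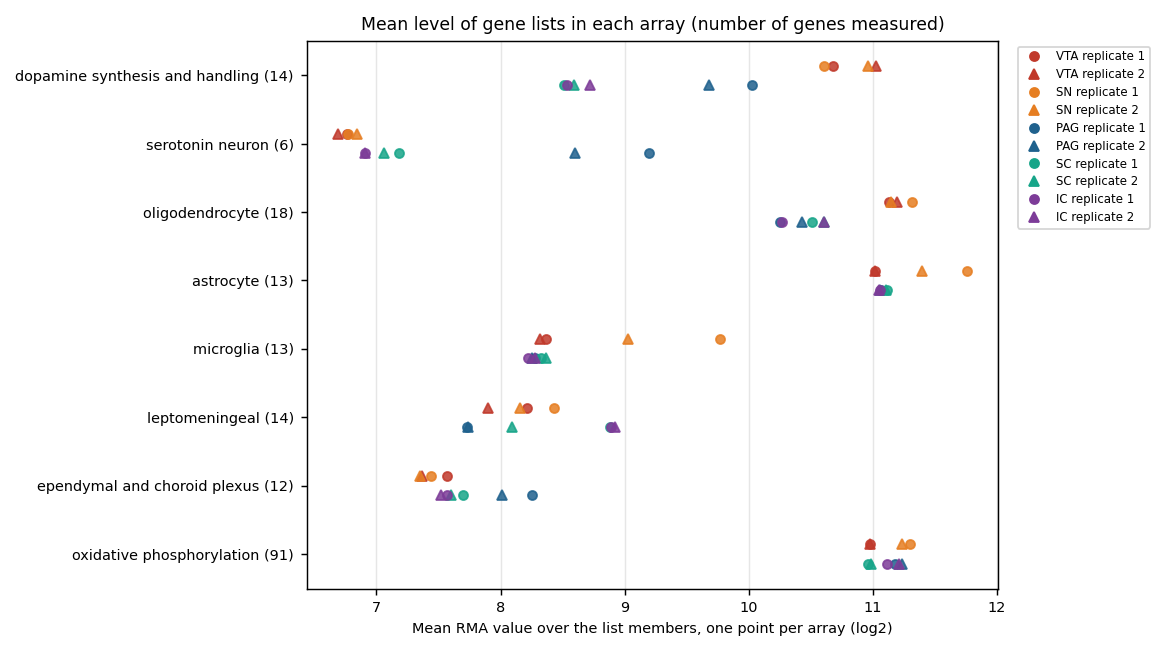
Mean RMA value (log2) over the measured members of 8 gene lists in each array, with the number of genes in parentheses. Colour gives the region, and circles and triangles are replicates 1 and 2. The 4 arrays of VTA and SN lie above the 6 dorsal ones for dopamine and oligodendrocyte genes, only the SN arrays do so for microglia and astrocyte genes, and PAG is highest for serotonin and ependymal genes.

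Other marker lists had smaller median differences between the sides than the oligodendrocyte and microglia lists. Of 11 endothelial genes 0 passed in the joint comparison, with a median of -0.05. Yet SN exceeded VTA for 6 (1 without SN replicate 1) and VTA exceeded SN for 0, beside 9.58% and 14.8% of all genes. Their median VTA minus SN was -0.28. Of 3 blood genes 0 passed in the joint comparison. Of 14 leptomeningeal genes 1 was lower, and 11 were lower when PAG was left out, since their mean level was 7.73 and 7.74 in PAG, 8.88 and 8.09 in SC, 8.89 and 8.92 in IC and 7.90 to 8.43 in VTA and SN. Of 10 general neuron genes 4 were higher, *Syt1*, *Stmn2*, *Tubb3* and *Gap43*, and 1 lower. These are 40% and 10%, beside 9.59% and 8.35% of all genes, and the median was -0.02. The lower one, *Rbfox3*, which codes for NeuN, read 11.91 and 11.86 in VTA and 10.97 and 11.20 in SN against 12.23 to 12.89, a difference of -1.03 (SE 0.06, adjusted p = 1.12e-20) with all 6 pairs called. Against the dorsal mean, VTA was higher for 4 of the 10 neuron genes and lower for 1, and SN higher for 2 and lower for 2. VTA exceeded SN for 4 and SN exceeded VTA for 0, beside 14.8% and 9.58% of all genes. *Snap25*, a protein of synaptic vesicle fusion, did not pass the test (-0.09, adjusted p = 0.285). Of 12 immediate early genes, which follow recent neuronal activity, 1 was lower, *Egr1*, at 9.65 and 9.68 in VTA, 8.60 and 8.52 in SN and 9.85 to 10.62 in the dorsal arrays (-1.09, SE 0.12, adjusted p = 1.97e-10).

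Few subunits of oxidative phosphorylation passed the test between the sides, with 5 of 91 higher and 5 lower and a median of 0.01, but many differed between VTA and SN. SN exceeded VTA for 53 of the 91 and VTA exceeded SN for 0, beside 9.58% and 14.8% of all genes. The median VTA minus SN of the subunits was -0.32, beside -0.006 over all genes. Their mean level was 10.98 in both VTA arrays, 11.30 and 11.24 in SN and 10.96 to 11.24 in the dorsal arrays. VTA was thus level with SC at the low end of that range and SN at or above its high end. Without SN replicate 1, 35 of the 91 were higher in SN than in VTA.

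Genes of inherited Parkinson disease, in which dopamine neurons of the SN die, hardly parted the sides. Of 12 measured, 2 were higher, *Uchl1* (0.56, adjusted p = 3.04e-08), a deubiquitinating enzyme, and *Sncaip* (0.51, adjusted p = 3.14e-05), a synuclein-binding protein, and 2 were lower, *Vps13c* and *Lrrk2*. *Pink1* and *Park7* did not pass the test (-0.02 each, adjusted p = 0.882 and 0.896). Of 11 measured iron handling genes 1 was higher, *Heph* (0.67, adjusted p = 4.47e-05), a ferroxidase of the membrane, and 1 lower, *Steap2* (-0.41). *Fth1*, the ferritin heavy chain, read 14.37 and 14.39 in SN, 13.91 and 13.85 in VTA and 14.01 to 14.08 in the dorsal arrays, so that SN lay above and VTA below the dorsal range (VTA minus SN -0.50, adjusted p = 1.68e-07).

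Markers of neighbouring nuclei gave no common direction. Of 8 interpeduncular and habenular genes 2 were higher and 1 lower, *Pou4f1*. The higher ones were *Chrna5* and *Nwd2*, which read 9.36 to 10.80 in VTA and SN and 7.97 to 8.46 in the dorsal arrays, while *Gpr151*, a receptor typical of habenular axons, read 4.82 to 5.14 in all 10 arrays. Of 8 measured mammillary genes 0 were higher and 2 lower. *Foxb1*, which defines the mammillary body, read 6.55 to 6.88 in VTA and SN and 6.55 to 7.04 in the dorsal arrays.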

How the data were processed

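The series holds 102 Affymetrix mouse whole-genome arrays of 51 regions. The authors normalized all arrays together by RMA, and the deposited values are on the log2 scale. RMA sets the arrays to a common distribution and compresses differences near the background. Detection calls were not used here. Of 45037 probe sets other than 64 controls, 34945 name 1 gene in the platform annotation, 932 several and 9160 none.

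All 96 arrays of 48 regions (without retina, pituitary and pineal) entered a linear model (limma 3.58.1, R 4.3.3) that had a coefficient for each region and no covariate, so that all regions lend to the variance estimate (48 residual and 6.63 prior degrees of freedom). Contrasts were the mean of VTA and SN minus the mean of PAG, SC and IC, each of VTA and SN against that mean, VTA minus SN, and the 6 region pairs, and p-values were adjusted by the Benjamini-Hochberg method over the whole array, with calls below 0.05. The number of arrays limits the precision. The model was tested on simulated data with known shifts.

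The regions, gene lists and motifs were chosen with earlier results of these data known. The text names the 15 largest differences in each direction among called probe sets of 1 gene whose arrays did not overlap (the most different probe set of a gene), list members (the probe set with the highest mean over 96 arrays), and, of the genes of the first rule and the list members called in the joint comparison, the 5 with the largest called difference between VTA and SN each way. Lists not otherwise described are given by count. Counts of list members compare with the shares of all 18193 genes, 9.59% higher and 8.35% lower in the joint comparison. VTA exceeded SN for 14.8% of all genes and SN exceeded VTA for 9.58%. The replicate numbers are shared by all regions. Deviations from region means correlated between same-numbered arrays from -0.0862 (PAG and SC) to 0.193 (VTA and IC), so the numbers were not taken as pairs. Sampling days come from the sample records of the study. Alternatives were replicate number or sampling day as a block, a robust fit with a trend in the variance, the 10 arrays alone, cyclic loess, a highest regional mean of at least 7, each array or dorsal region left out, region means as units and the mean over the probe sets of a gene. Promoter windows are those of RefSeq on GRCm38.p6. Figures were drawn with matplotlib 3.10.9 in Python 3.11.15.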

Additional observations from a re-analysis of the deposited data

Results flagged for a closer look

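VTA and SN differed from each other, by the test of VTA minus SN in limma, in genes with large or called differences from the dorsal midbrain. VTA was the higher region for *Crhbp* (3.10, adjusted p = 3.82e-17), *Slc17a6* (2.68, adjusted p = 1.28e-11), *Neurod6* (2.66, adjusted p = 6.01e-07), *Cacna2d1* (2.44, adjusted p = 1.63e-16) and *Pmch* (2.42, adjusted p = 2.83e-06). SN was the higher one for *Pvalb* (-2.23, adjusted p = 3.84e-12), *Aqp4* (-1.97, adjusted p = 3.02e-09), *Aldh1a7* (-1.55, adjusted p = 3.95e-14), *Gad1* (-1.53, adjusted p = 6.10e-06) and *C1qa* (-1.39, adjusted p = 8.91e-10).

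In some groups a single array lay far from the rest by Dixon's criterion. Among the 4 arrays of VTA and SN these were SN replicate 2 for *Anxa1* (10.03) and *Maob* (9.27), SN replicate 1 for *Nkx6-2* (7.77), VTA replicate 2 for *Slc6a4* (6.52) and VTA replicate 1 for *Ccdc153* (7.86). Among the 6 dorsal arrays it was PAG replicate 1 for *Hcrt* (7.57). That is 6 of 222 groups examined, where chance alone marks about 1 in 20.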

How the results depend on the processing

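Of 101 called genes named above, all kept their direction and call with replicate number or sampling day as a block, in a robust fit with a variance trend and in a fit of the 10 arrays alone, and 100 with cyclic loess. The sampling day block cannot tell day from region, since VTA and SN shared no day with PAG, SC or IC. Without PAG 90 kept both, 8 lost the call and 3 turned (*Tph2* 0.01, *Slc18a3* 0.12, *Ucn* 0.03), and *Maob*, not called before, was higher (0.42). Without SC 91 and without IC 94 kept both. With region means as units 2 did. The joint counts of 3675 higher and 3175 lower probe sets were 3698 and 3189 with the replicate block, which changed no call of a named gene, and 3580 and 3038 with the sampling day block, 2422 higher without IC, and 2 higher and 0 lower with region means as units.

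Leaving out 1 array gave 2583 to 3660 higher and 2013 to 3058 lower, for VTA alone 1563 to 3971 and 841 to 3043, for SN alone 1822 to 4036 and 2015 to 4462, for VTA above SN 2526 to 5275 and below it 1511 to 4223, and in all 6 pairs 129 to 225 and 16 to 38. The lowest counts came without VTA replicate 2 or SN replicate 1.

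With cyclic loess, 2 iron genes were higher, 1 astrocyte, 4 neuron and 11 oxidative phosphorylation genes lower. With the mean over the probe sets of a gene, 1 serotonin, 3 iron, 1 ependymal and 2 oxidative phosphorylation genes were higher, and 0 iron, 2 interpeduncular and 2 neuron genes lower.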

Other observations

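For 5 of the 15 genes with the largest positive difference, the highest mean of the 48 regions lay outside the midbrain. These were *Nr4a2* in the habenular nucleus (11.79, VTA 10.41, SN 9.60), *Dlk1* in the suprachiasmatic nucleus (11.95, VTA 11.71, SN 11.13), *Anxa1* in the supraoptic nucleus (9.80, VTA 9.41, SN 9.68), *Ctxn3* in the mammillary body (11.20, VTA 9.15, SN 8.88) and *Syt17* in the ventral subiculum (11.14, VTA 10.81, SN 10.59). Among the genes lower in VTA and SN, *Shox2* was highest in the mediodorsal thalamic nucleus (11.21), *Lhx9* and *Pou4f1* in the habenular nucleus (10.74 and 11.45) and *Sst* in the medial preoptic area (13.08).

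*Pmch* read 10.18 on average in VTA and 7.68 in the region LH, with the highest means in the dorsomedial hypothalamic nucleus (13.97) and the region Pa (13.40). *Hcrt* was highest in the dorsomedial hypothalamic nucleus as well (11.10), with 7.81 in VTA and 7.54 in LH.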
